A study of Mus musculus with 8 samples.

Results

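The genes described here are the polo-like kinases Plk2 and Plk3 and 5 genes for synaptic proteins. The latter are the Rap GTPase-activating proteins Sipa1l1, Sipa1l2 and Sipa1l3, the Ras exchange factor Rasgrf1 and the adaptor Pdlim5. All 7 genes were chosen by name, with earlier results of these data known. Each was found as 1 row of the gene table, so they make up 7 of its 45706 genes and 7 of the 14962 genes with enough reads to be tested. The bulk RNA-seq libraries came from hippocampal neurons cultured from C57/Bl6 wild-type mouse embryos (E18) and given either H2O as vehicle or melanin-concentrating hormone (MCH), a hypothalamic neuropeptide, for 4 h, with 4 libraries per treatment. All libraries carry the wild-type genotype, although their labels also hold a disease model tag. The methods name 2 separate cultures, each with 2 wells given vehicle and 2 given MCH, but not the culture behind a replicate number, so the tests measure the spread between these wells. The question is whether MCH, applied to neurons for a few hours, moved the transcripts of the kinases and of the 5 synaptic proteins.

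PLK2 (also called SNK) is a serine/threonine kinase whose gene is induced by neuronal activity. In overactive neurons it is known to weaken excitatory synapses, a form of homeostatic scaling: it phosphorylates SPAR, the product of Sipa1l1, which is then ubiquitinated and degraded. SPAR is a scaffold of the postsynaptic density that switches off the small GTPase Rap and enlarges dendritic spines. PLK2 also phosphorylates RASGRF1, which activates Ras, as well as RAPGEF2, so that the balance of Ras and Rap signaling in spines shifts. PLK3 (FNK) is a relative that is likewise induced by activity, and PDLIM5 is a scaffold with PDZ and LIM domains that binds protein kinase C.

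On GRCm38 with the GENCODE vM21 annotation, Plk2 (ENSMUSG00000021701) lies at chr13:110395046-110400844 on the plus strand, and its single annotated transcript has 14 exons. Plk3 (ENSMUSG00000028680) lies at chr4:117128655-117133963 on the minus strand, and its main transcript has 15 exons. The other loci are chr12:82169320-82451786 (plus strand) for Sipa1l1, chr8:125418063-125569808 (minus) for Sipa1l2, chr7:29320372-29518641 (minus) for Sipa1l3, chr9:89909908-90026977 (plus) for Rasgrf1 and chr3:142239590-142395696 (minus) for Pdlim5. Of these genes, Plk3 was the only one that shared exon bases with another annotated gene. It overlapped Tctex1d4 by 84 bases on the opposite strand, the libraries were stranded, and Tctex1d4 itself reached at most 0.0702 counts scaled to a common library size (CPM).

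The promoters of the kinases are shown because both genes are known as activity-induced. Each sequence holds the 250 bases before the RefSeq start on GRCm38.p6, 5′ to 3′ on the strand of the gene. Capitals mark the cAMP response element TGACGTCA or its core, TGACG. The Plk2 window is chr13:110394794-110395043 and the Plk3 window is chr4:117133964-117134213.
Plk2: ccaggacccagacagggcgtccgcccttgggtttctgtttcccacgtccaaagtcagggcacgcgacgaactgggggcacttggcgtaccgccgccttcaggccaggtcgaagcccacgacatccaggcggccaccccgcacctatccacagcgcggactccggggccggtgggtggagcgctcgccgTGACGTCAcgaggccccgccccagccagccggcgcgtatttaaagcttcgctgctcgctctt
Plk3: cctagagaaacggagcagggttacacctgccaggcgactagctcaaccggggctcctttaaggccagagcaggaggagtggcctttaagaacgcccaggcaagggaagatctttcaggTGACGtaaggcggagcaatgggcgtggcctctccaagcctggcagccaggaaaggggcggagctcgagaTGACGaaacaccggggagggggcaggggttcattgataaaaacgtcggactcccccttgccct
The Plk2 window held the full element at positions -62 to -55 from the start, a palindrome that contains the core on both strands. The Plk3 window held no full element and had cores at -132 to -128 and at -63 to -59. Among all 32851 RefSeq promoter windows of this length, 1.55% held the full element and 17.8% the core, searched on both strands. RefSeq gave 10 windows for the 7 genes, of which 1 held the full element and 3 held the core, the third being that of Rasgrf1. Capitals in the next stretches mark the core of Rasgrf1 on its minus strand (chr9:89909615-89909654, -160 to -121) and an E-box, CACGTG, of Sipa1l3 (chr7:29505621-29505660, -200 to -161).
Rasgrf1: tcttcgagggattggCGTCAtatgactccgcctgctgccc
Sipa1l3: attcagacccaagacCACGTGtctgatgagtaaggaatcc
The E-box occurred in 6.02% of all windows and in 1 of the 10. The AP-1 motif TGANTCA occurred in 6.75% of all windows and in 1 of the 10, a Sipa1l2 window, and the CArG box in 1.47% of all windows and in 0 of the 10. The Sipa1l3 window and the Sipa1l2 window with the AP-1 motif lie inside the annotated genes, not at their GENCODE starts. These matches describe the letters of the windows only.

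The libraries held 26083936 to 31844861 estimated counts, with a median of 27997746. Neuronal markers summed to 6110 to 7090 CPM per library and astrocyte markers to 1020 to 2400 CPM, so the labelled cell type carried its markers. Replicates 1 and 2 of both treatments stood apart from replicates 3 and 4: astrocyte markers summed to 1020 to 1130 CPM in the former and to 2110 to 2400 CPM in the latter, and markers of dividing cells to 4.5 to 7.82 against 21.3 to 25.5 CPM. Oligodendrocyte lineage (57.3 to 67.9 against 126 to 147 CPM), microglia (4.6 to 6.19 against 7.12 to 9.51) and fibroblast and vessel markers (17.1 to 23 against 51.6 to 56.1) were also higher in the latter. Neuronal markers (6730 to 7090 against 6110 to 6330 CPM) and inhibitory neuron markers (1850 to 2050 against 1630 to 1780) were lower there. The sets were balanced between treatments. Of 43 marker genes listed, 38 were tested. Without a block, 0 of these were called between MCH and vehicle, where 0.234% of all tested genes were. With the replicate block 2 of the 38 were, where 3.98% of all tested genes were. These 2 were the inhibitory neuron marker Gad1 (log2 fold change -0.10) and the astrocyte marker Slc1a2 (0.15). A block for the replicate set called Gad1 (edgeR adjusted p = 0.0267) but not Slc1a2 (edgeR adjusted p = 0.115). The part of these 2 genes in the blocked results was not tested. The receptor gene Mchr1 was expressed at 9.91 ± 0.82 CPM with vehicle and 9.7 ± 0.297 CPM with MCH (SD, n = 4). In such bulk libraries, fewer cells of a type and less RNA per cell cannot be told apart.

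Levels between genes were compared in TPM, salmon's estimate of transcript abundance per length and depth. Plk2 had the highest mean level of the 7 genes with vehicle, 94.4 ± 1.97 TPM (SD, n = 4), above 86.4% of all tested genes. Rasgrf1 followed at 78.3 ± 12.3 TPM and Sipa1l1 at 70.1 ± 1.99 TPM, and the values of these 2 overlapped between libraries. Sipa1l3 came next at 38.4 ± 2.61 TPM. Pdlim5 at 29.7 ± 1.14 and Sipa1l2 at 27.1 ± 0.934 TPM overlapped as well. Plk3 had the lowest level, 20.7 ± 2.27 TPM, yet lay above 54.6% of the tested genes. All 7 transcripts were thus present in every library, with Plk2 at 3.99 to 5.3 times the TPM of Plk3 in the vehicle libraries.

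The main comparison asked which of these genes differed between MCH and vehicle. Without a block for the replicate number, 0 of the 7 genes passed the quasi-likelihood F test of edgeR (Benjamini–Hochberg adjusted p under 0.05 over all genes), where 0.234% of the tested genes did, 0.207% lower and 0.0267% higher with MCH. At an unadjusted p under 0.05 in this fit there were 3 of 7, Plk3, Sipa1l2 and Sipa1l3, against 8.5% of all tested genes. Plk3 and Sipa1l2 were lower, and Sipa1l3 higher, in all 4 MCH libraries than in any vehicle library in CPM, so that 3 of 7 did not overlap, against 6.03% of all tested genes (2.96% lower and 3.07% higher). This count depends on the scale: in TPM Plk3 stayed apart, but Sipa1l2 and Sipa1l3 overlapped between the treatments. With the replicate number as a block, these same 3 genes were called, 2 lower and 1 higher, where 3.98% of the tested genes were (2.25% lower and 1.73% higher). A block for the replicate set (1 and 2, or 3 and 4) gave the same 3 calls against a background of 4.46% (2.61% lower and 1.85% higher). Plk2, Sipa1l1, Rasgrf1 and Pdlim5 were called in none of these fits. Because the 7 genes were chosen with earlier results of these data known, their counts beside these shares are descriptions and give no independent support. Over the 7 genes, 4 had a lower and 3 a higher fitted value, with a median log2 fold change of -0.02, beside a median of -0.00 over all tested genes.

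**Figure D1:**
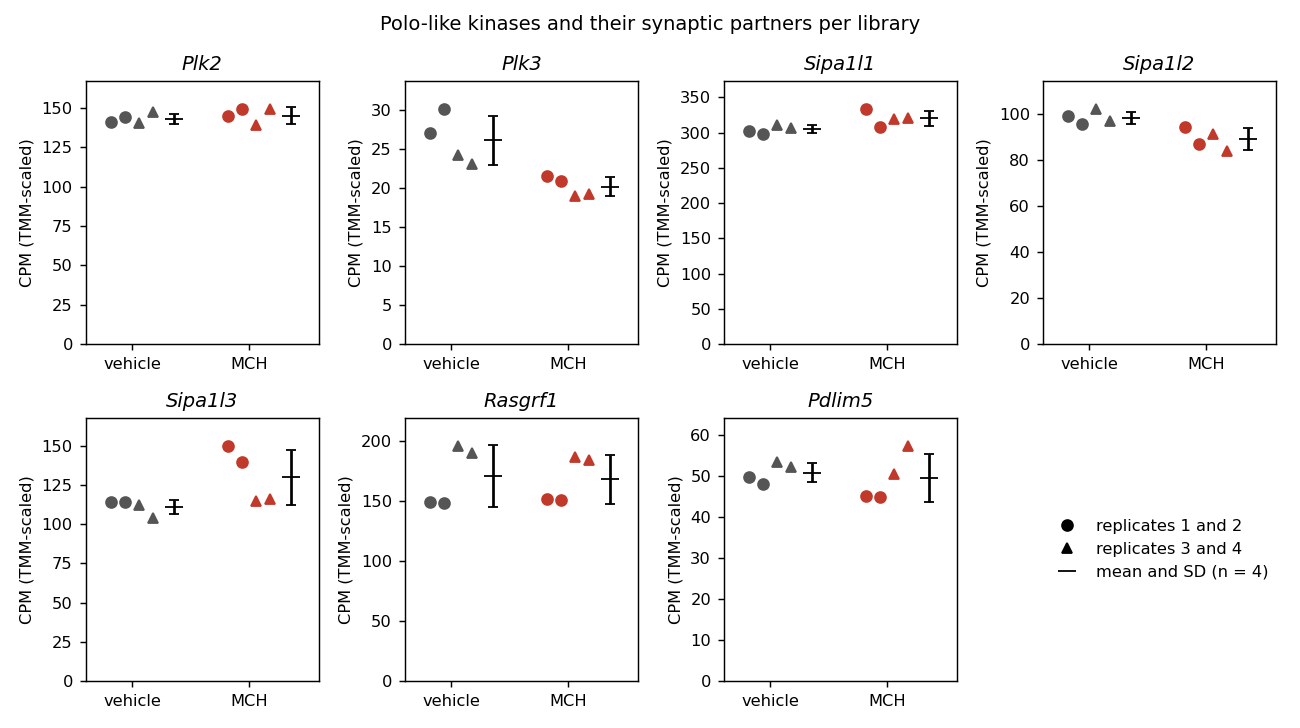
Expression of the 7 genes in each library, in CPM scaled by TMM (y axis from 0), for vehicle (grey) and MCH (red). Circles are replicates 1 and 2, triangles are replicates 3 and 4, and bars give the mean and SD of the 4 libraries. The 4 MCH libraries lie between 19 and 21.5 CPM for Plk3, under all vehicle libraries, whereas Rasgrf1 separates the replicate sets and not the treatments.

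Plk2 was measured at 141, 144, 140 and 147 CPM in vehicle replicates 1 to 4 and at 145, 149, 139 and 149 CPM in MCH replicates 1 to 4. The treatments overlapped, with the lowest value in an MCH library. The mean was 143 ± 3.06 CPM with vehicle and 145 ± 5.13 with MCH (SD, n = 4), a log2 fold change of 0.03 (SE 0.04, 95% interval -0.06 to 0.11; edgeR adjusted p = 0.946). The interval was -0.04 to 0.09 with the replicate block, in which Plk2 was not called either (edgeR adjusted p = 0.72). Between 3630 and 4527 counts per library stood behind these values.

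Plk3 was measured at 27, 30.1, 24.2 and 23.1 CPM in the vehicle libraries and at 21.5, 20.9, 19 and 19.2 CPM in the MCH libraries. Every MCH library lay below every vehicle library, and the difference within pairs of the same replicate number was -0.33, -0.52, -0.35 and -0.26 on the log2 CPM scale. The mean went from 26.1 ± 3.12 to 20.2 ± 1.23 CPM (SD, n = 4), that is, by -22.8%, a log2 fold change of -0.37 (SE 0.09, 95% interval -0.57 to -0.18; edgeR adjusted p = 0.187). The fit with the replicate block gave the same log2 fold change with a smaller error and called the gene (SE 0.06, interval -0.49 to -0.25; edgeR adjusted p = 0.000983). So did the fit with the block for the replicate set (SE 0.06, interval -0.49 to -0.26; edgeR adjusted p = 0.000386). DESeq2 without a block also called Plk3 (adjusted p = 0.0312), where it called 1.25% of the genes to which it gave an adjusted p, 0.742% lower. In the fit without a block, Plk3 ranked 142 of 14962 by p, and in that with the replicate set it ranked 71. Plk3 was lower with MCH in both replicate sets, with a log2 difference of -0.43 for replicates 1 and 2 and of -0.31 for replicates 3 and 4, and the difference between these was not called (edgeR interaction adjusted p = 0.854). Leaving out each library in turn gave -0.42 to -0.29 without a block and 0 calls of 8. Its counts were the lowest of the 7 genes, 548 to 830 per library.

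The ratio of the kinases within each library does not depend on the scaling between libraries. The log2 ratio of Plk3 to Plk2 in CPM was -2.46 ± 0.18 with vehicle and -2.85 ± 0.09 with MCH (SD, n = 4), a difference of -0.39, lower with MCH in 4 of 4 pairs. Plk2 exceeded Plk3 in TPM by 3.99 to 5.3 times with vehicle and by 5.63 to 6.5 times with MCH. The ratios did not overlap between the treatments, so any pairing of the libraries would give 4 of 4. This ratio and those of the Sipa1l genes were chosen after the values of the genes had been seen, so they are given as descriptions without a test.

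**Figure D2:**
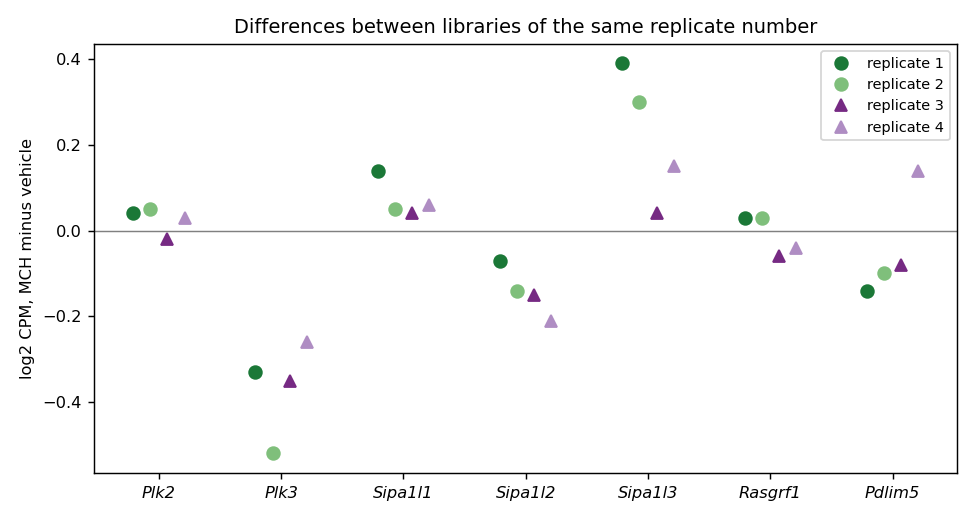
Difference in log2 CPM between the MCH and the vehicle library of the same replicate number (y axis), for each of the 7 genes. Green circles are replicates 1 and 2 and purple triangles replicates 3 and 4. All 4 differences are below 0 for Plk3 (-0.52 to -0.26) and Sipa1l2 (-0.21 to -0.07) and above 0 for Sipa1l1 and Sipa1l3.

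The related kinase genes gave little signal. Plk1, a mitotic kinase, was at 0.45 to 1.56 CPM and was higher in replicates 3 and 4 of both treatments than in replicates 1 and 2, as the markers of dividing cells were. Plk4, which controls centriole duplication, was at 1.41 to 5.16 CPM. Neither was called, with log2 fold changes of 0.00 and 0.01 and standard errors of 0.51 and 0.44. Plk5 had too few reads to be tested.

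Sipa1l1, Sipa1l2 and Sipa1l3 encode paralogous Rap GTPase-activating proteins, of which SPAR (Sipa1l1) is the PLK2 substrate described above. Sipa1l1 was measured at 302, 298, 311 and 307 CPM with vehicle and at 333, 308, 319 and 320 CPM with MCH. The treatments overlapped by 1 library on each side, although the MCH library was the higher in each of the 4 pairs. The mean was 305 ± 5.68 CPM with vehicle and 320 ± 10.4 with MCH (SD, n = 4), a log2 fold change of 0.07 (SE 0.04, 95% interval -0.01 to 0.15; edgeR adjusted p = 0.637). It was not called with the replicate block (edgeR adjusted p = 0.189).

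Sipa1l2, which encodes SPAR2, was measured at 98.9, 95.7, 102 and 96.8 CPM with vehicle and at 94.3, 86.8, 91.4 and 83.8 CPM with MCH. In CPM all MCH libraries lay below all vehicle libraries, MCH replicate 1 by a narrow margin. In TPM the treatments overlapped, because MCH replicate 1 at 26.4 TPM lay above vehicle replicate 2 at 26.1 TPM. The mean went from 98.3 ± 2.58 to 89.1 ± 4.66 CPM (SD, n = 4), by -9.34%, a log2 fold change of -0.14 (SE 0.04, 95% interval -0.24 to -0.04; edgeR adjusted p = 0.387). With the replicate block Sipa1l2 was called (SE 0.03, interval -0.22 to -0.07; edgeR adjusted p = 0.0262). It was also called with the block for the replicate set (SE 0.04, interval -0.22 to -0.06; edgeR adjusted p = 0.0382). DESeq2 without a block did not call it (adjusted p = 0.262).

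Sipa1l3 was measured at 114, 114, 112 and 104 CPM with vehicle and at 150, 140, 115 and 116 CPM with MCH. MCH replicates 1 and 2 stood well above the rest, while MCH replicates 3 and 4 exceeded the highest vehicle library only slightly. The mean went from 111 ± 4.68 to 130 ± 17.5 CPM (SD, n = 4), by 17.1%, a log2 fold change of 0.23 (SE 0.09, 95% interval 0.03 to 0.42; edgeR adjusted p = 0.501). The replicate block called it (0.22, SE 0.05, interval 0.10 to 0.34; edgeR adjusted p = 0.0462). So did the block for the replicate set (0.22, SE 0.05, interval 0.12 to 0.32; edgeR adjusted p = 0.0194). The log2 difference came to 0.34 for replicates 1 and 2 but to 0.10 for replicates 3 and 4, a gap of -0.25 (SE 0.07) whose p of 0.00121 in edgeR's interaction test did not pass adjustment over all genes (adjusted p = 0.274), where 0.0267% of genes were called and 7.6% had an unadjusted p under 0.05. Marker sums of neurons, astrocytes and the other listed cell types differed between these replicate sets as given above. The part of these cells in the result was not tested. In TPM the treatments overlapped, because MCH replicate 4 at 40.6 TPM lay under vehicle replicate 4 at 40.8 TPM.

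Ratios of the paralogues within each library are given in the same way. The log2 ratio of Sipa1l2 to Sipa1l1 in CPM was -1.63 ± 0.03 with vehicle and -1.85 ± 0.06 with MCH (SD, n = 4), a difference of -0.21, lower with MCH in 4 of 4 pairs. The log2 ratio of Sipa1l3 to Sipa1l2 was 0.18 ± 0.07 with vehicle and 0.54 ± 0.17 with MCH (SD, n = 4), a difference of 0.36, lower in 0 of 4 pairs. Neither of these ratios overlapped between the treatments, so any pairing of the libraries would give the same counts. The ratio of Sipa1l3 to Sipa1l1 differed by 0.15 in CPM and by 0.23 in TPM and was lower with MCH in 0 of 4 pairs, with pair differences of 0.00 to 0.25 in CPM.

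**Figure D3:**
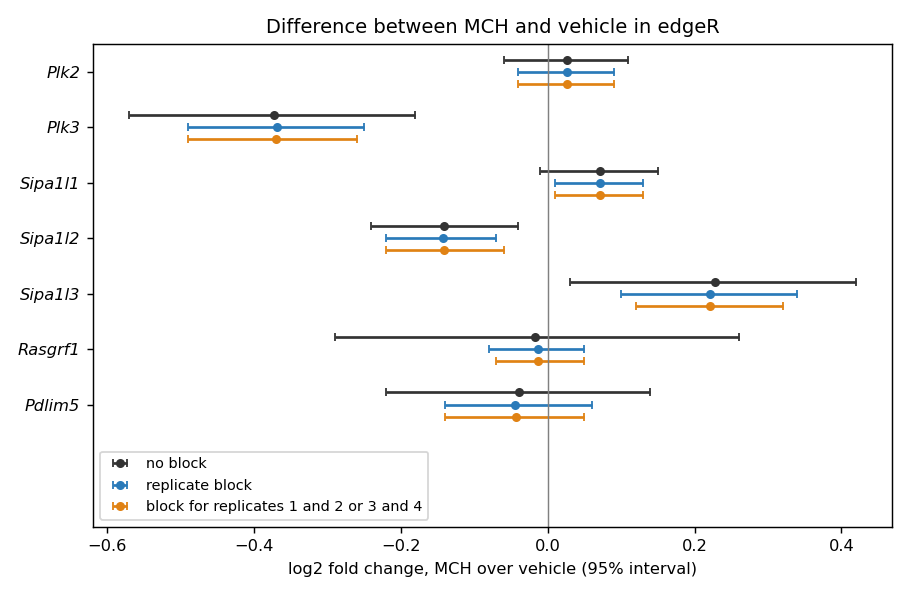
Log2 fold change of MCH over vehicle (x axis) with its 95% interval in edgeR for each gene, without a block (black), with the replicate number as a block (blue) and with the replicate set as a block (orange). The estimates agree between fits while the intervals narrow with a block, most for Rasgrf1 (from -0.29 to 0.26 to -0.08 to 0.05).

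Rasgrf1, which encodes a calcium-responsive Ras activator and PLK2 substrate, was measured at 149, 148, 196 and 190 CPM with vehicle and at 152, 151, 187 and 184 CPM with MCH. The gene separated the replicate sets, not the treatments: replicates 1 and 2 lay at 148 to 152 CPM and replicates 3 and 4 at 184 to 196 CPM under either treatment. The mean was 171 ± 25.7 CPM with vehicle and 168 ± 20.1 with MCH (SD, n = 4), a log2 fold change of -0.02 (SE 0.12, 95% interval -0.29 to 0.26; edgeR adjusted p = 1). With the replicate block the error shrank to 0.03 and the interval to -0.08 to 0.05 (log2 fold change -0.01; edgeR adjusted p = 0.876). The same replicate sets differed in the marker sums of neurons, astrocytes, dividing cells and the other listed cell types. The part of these cells in the Rasgrf1 level was not tested.

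Pdlim5 was measured at 49.7, 48.2, 53.5 and 52.2 CPM with vehicle and at 45.2, 44.9, 50.6 and 57.4 CPM with MCH. The treatments overlapped, and MCH replicate 4 was the highest of all 8 libraries while the other MCH libraries were below the vehicle library of their number. The mean was 50.9 ± 2.37 CPM with vehicle and 49.5 ± 5.84 with MCH (SD, n = 4), a log2 fold change of -0.04 (SE 0.08, 95% interval -0.22 to 0.14; edgeR adjusted p = 0.987). It was not called with the replicate block (edgeR adjusted p = 0.687).

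The deposited transcript estimates showed which annotated forms carried these values. Of 42 annotated transcripts of the 7 genes, 21 had enough reads to be tested, and 0 of them were called, where 0% of all 33527 tested transcripts were called and 4.4% had an unadjusted p under 0.05 in edgeR. Plk3-201, the coding transcript of Plk3, took 93.5 ± 6.07% of the reads of the gene with vehicle and 93.9 ± 3.33% with MCH (SD, n = 4). Its log2 fold change was -0.36 (SE 0.10; edgeR adjusted p = 0.893), close in size to that of the gene. The remaining reads of Plk3 went mostly to Plk3-202, a noncoding processed transcript with 0 to 69.9 reads per library. Sipa1l1 reads were split between Sipa1l1-201, with log2 fold change -0.00 (SE 0.07), and Sipa1l1-202, with 0.16 (SE 0.06), and neither was called. The latter held 42.3 ± 3.24% of the reads of the gene with vehicle and 45.1 ± 2.63% with MCH.

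Sipa1l3-201 and Sipa1l3-215, each 7713 bases long, differed by 0 bases in the annotation, so salmon could only divide their reads evenly (43.9% and 43.7% of the gene with vehicle), and their separate values carry no information. Sipa1l3-203, a retained intron form, was listed at 0 reads in MCH replicate 2 and at 233 to 263 in the other MCH libraries. Most Rasgrf1 reads fell on Rasgrf1-202, the transcript with 27 exons. Rasgrf1-203, a form of 2 exons with a coding stretch of 459 bases, took 11.6, 12.5, 11.7 and 11.4% of the reads in the vehicle libraries and 10.9, 10.9, 10.6 and 10.8% in the MCH libraries. These shares did not overlap between the treatments, but they were singled out after they had been seen and were not tested, and the level of Rasgrf1-203 itself was not called (log2 fold change -0.14, SE 0.12; edgeR adjusted p = 1). Pdlim5-201 held 72.4 ± 4.55% of the Pdlim5 reads with vehicle and 74.2 ± 5.14% with MCH.

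The genes closest to each kinase in their pattern were found by the root mean square difference of log2 CPM, centred on the mean, over all 8 libraries. For Plk2 these were Armc9 (0.0176), Zmat2 (0.0201) and Dnajc3 (0.0226), each of them flat between the treatments with log2 fold changes of 0.03, 0.02 and 0.04. For Plk3 they were Stk40 (0.0543), Ifrd1 (0.0588) and Hdac9 (0.0634). Stk40, which encodes a serine/threonine kinase, was measured at 73, 78, 66.8 and 66.6 CPM with vehicle and at 56.6, 55.2, 54.6 and 51.3 CPM with MCH. It was called without a block (log2 fold change -0.39; edgeR adjusted p = 0.0376). Ifrd1 and Hdac9 had log2 fold changes of -0.30 and -0.29 and were not called without a block, but were called with the replicate block (edgeR adjusted p = 0.000504 and 8.23e-05) and with the block for the replicate set. Hdac9 encodes a class IIa histone deacetylase. Like Plk3, these 3 genes had their highest values in vehicle replicates 1 and 2. These genes were selected for their likeness over the same 8 libraries, so that they give no independent support.

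**Figure D4:**
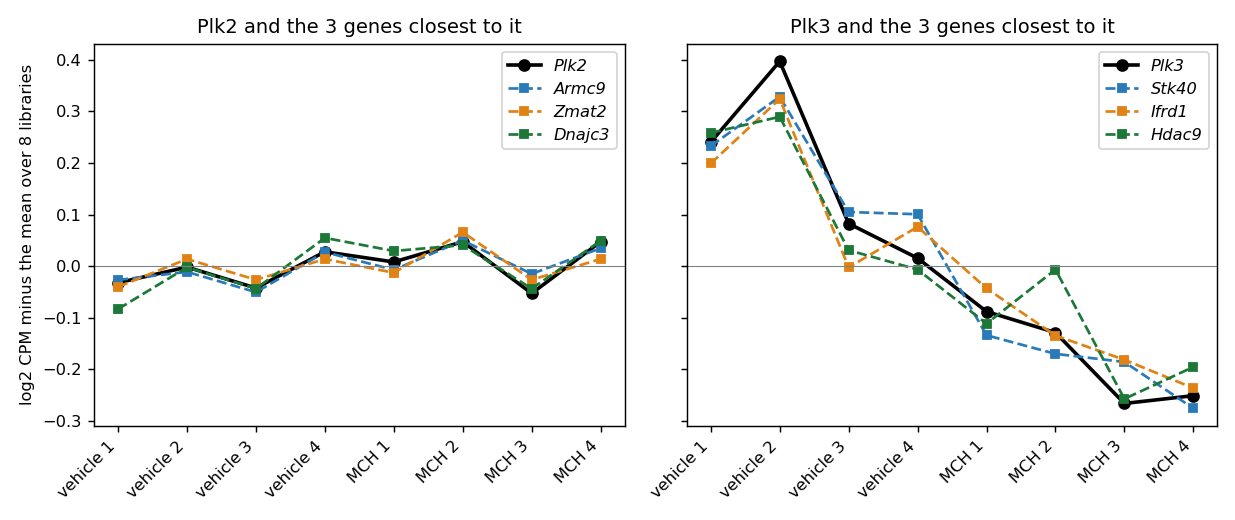
Log2 CPM minus the mean over the 8 libraries (y axis) for Plk2 (left) and Plk3 (right), each in black with the 3 tested genes closest to it (dashed). Lines join the libraries of one gene only to guide the eye. The Plk2 set stays near 0 in every library, while the Plk3 set is high in vehicle replicates 1 and 2 and below 0 in all MCH libraries.

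Other genes around the kinases were described from fixed lists, chosen with earlier results of these data known. Counts of calls in these lists therefore give no independent support. Among 14 substrates of PLK2 and genes for the turnover of SPAR, all tested, 8 had lower and 6 higher fitted values. Their median log2 fold change was -0.01, and 0 were called without a block, where 0.234% of all tested genes were. Cdk5, the kinase that primes SPAR, had -0.03, and Btrc, which encodes the ubiquitin ligase subunit that recognises SPAR, had -0.02. Fbxw11, a relative of Btrc, and Cdk5r2, an activator of Cdk5, had the lowest values of the list at -0.05 and Rapgef2 the highest at 0.22. Rapgef2, which encodes a Rap exchange factor that PLK2 phosphorylates, was the only one of the 14 called with the replicate block, where 3.98% of all tested genes were called (186, 180, 164 and 156 CPM with vehicle, 228, 219, 175 and 175 with MCH; edgeR adjusted p = 0.00166), and it too was lower in replicates 3 and 4.

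Of 25 further Ras and Rap switch genes, 12 had lower and 13 higher fitted values (median 0.00). Without a block 0 were called, where 0.234% of all tested genes were. With the replicate block 3 were called lower, the GTPase genes Rap1b (log2 fold change -0.13) and Rap2a (-0.15) and the Ras GTPase-activating protein gene Rasa1 (-0.17). In the same fit 2 were called higher, Rap1gap2 (0.13), which switches off Rap, and Rasgrp1 (0.17), which activates Ras. Over all tested genes that fit called 2.25% lower and 1.73% higher. The lowest value of the list was that of Rasa1 and the highest that of Nf1 (0.20, not called), the neurofibromin gene. Of the list, 4 genes were lower and 1 higher in all MCH than in all vehicle libraries, where 2.96% and 3.07% of all genes were. Of 6 PDZ-LIM relatives of Pdlim5, 0 were called with or without the replicate block, where 3.98% and 0.234% of all tested genes were. Pdlim3 (-0.35) and Pdlim2 (0.27) marked the ends of the list, both at low counts.

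Homeostatic scaling genes, which set the number of AMPA receptors when activity changes, gave the only calls without a block among these lists. This list too was chosen with earlier results known, and the authors name Arc and Bdnf among the genes lowered by MCH. Of 20 such genes 19 could be tested (Tnf could not), 10 with lower and 9 with higher fitted values and a median of -0.00. The calls without a block were 2 lower and 0 higher, where 0.207% of all tested genes were called lower and 0.0267% higher. Arc, whose product removes AMPA receptors from the surface, was measured at 58.9, 55, 54.9 and 56.2 CPM with vehicle and fell to 40.5, 34.7, 36.4 and 37.7 CPM with MCH (log2 fold change -0.59; edgeR adjusted p = 0.00492). Homer1, a postsynaptic scaffold gene with an activity-induced short form, fell from 118 ± 5.77 to 96.6 ± 4.14 CPM (SD, n = 4; log2 fold change -0.30; edgeR adjusted p = 0.0488). With the replicate block 5 genes were called lower, namely Arc, Homer1, Nptx2, Bdnf and Rara, and 1 higher, Epha4 (0.24, the highest of the list), where 2.25% of all tested genes were called lower and 1.73% higher. Of the AMPA receptor subunit genes, Gria1 (0.00) and Gria3 (-0.00) were called in none of these fits. Gria2 (0.11, 563 ± 25.7 CPM with vehicle and 606 ± 14 with MCH; SD, n = 4) was called higher only with the block for the replicate set (edgeR adjusted p = 0.0455; 0.067 with the replicate block). Plk3, at -0.37, lay beside Bdnf (-0.38), whereas Plk2, at 0.03, lay beside Camkk1 (0.03) and Nptxr (0.04).

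**Figure D5:**
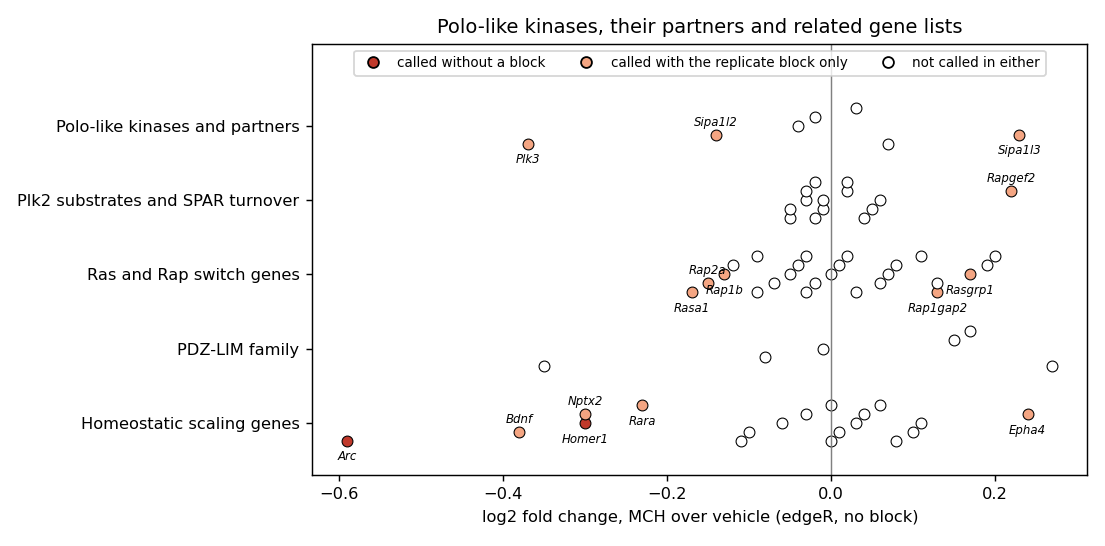
Log2 fold change of MCH over vehicle without a block (x axis) for the 7 genes and for 4 lists of related genes, 1 circle per tested gene (vertical offsets only separate the circles). Red circles were called without a block, light orange with the replicate block only and white in neither, and the genes called in either are named. Arc and Homer1 are the only red circles, and Plk2 is 1 of the 4 white circles in the top row.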

How the data were processed

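The authors ran nf-core/rnaseq with salmon on the reads of stranded poly-A libraries, against GRCm38. The deposited gene table holds estimated counts per gene, left unscaled, and 9.13% of its entries are fractional. For each library a deposited salmon table adds estimated counts and TPM per transcript, TPM being adjusted by the authors' run for effective length and library size. The submitters' notes also name R 4.0.3 and DESeq2 1.13.0, whereas the authors' reporting summary gives a different DESeq2 version. Symbols and coordinates came from GENCODE vM21, which matched 98.8% of gene rows. The release behind the deposited tables is not given in the sources used here.

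Counts were rounded and fitted on the whole table in R 4.3.3 with edgeR 4.0.16 (TMM factors, filterByExpr with count minimum 10 and total minimum 15, robust quasi-likelihood F test, Benjamini–Hochberg adjustment, threshold 0.05), without a block. CPM are TMM-scaled. Alternatives were DESeq2 1.42.0, limma 3.58.1 (voom), other scalings and filters, a transcript length offset, leaving out each library, and blocks. Fits were tested on simulated data. Same-numbered libraries of the treatments deviated together (correlations of 0.445, 0.492, 0.545 and 0.499). Libraries of other numbers in the same replicate set did so to a like degree (0.493, 0.52, 0.521 and 0.475). These values give grounds for a block by set but not for pairing by number, which the labels do not state either. The replicate number was used as a block, and the replicate set as another. Differences within pairs of the same number are descriptions. The named genes were all 7 genes, their tested transcripts, Mchr1, the 3 genes most like Plk2 and Plk3, and from each list the called, lowest and highest genes. Others were named after their values were seen. Members and lists were chosen with earlier results of these data known. Protein sequences were not used here.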

Additional observations from a re-analysis of the deposited data

Results flagged for a closer look

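The MCH difference of Rasgrf1 took opposite signs in the replicate sets: it was 0.03 on the log2 CPM scale in replicates 1 and 2, positive in both pairs, and -0.05 in replicates 3 and 4, negative in both pairs. The difference between the sets was not called in edgeR's interaction test (adjusted p = 0.792). Among the 14 groups of 4 libraries (7 genes in each treatment), 0 had a library standing apart by Dixon's criterion.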

How the results depend on the processing

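The number of genes called was 35 without a block, 157 with DESeq2 (93 lower and 64 higher), 596 with the replicate block (337 and 259), 668 with the block for the replicate set (391 and 277), 7 with the transcript length offset, and 4 to 29 when each library was left out. Transcripts called numbered 0, against 6 with the set block and 0 to 1 with a library left out. The interaction called 4 genes, 266 without a filter and 3 to 277 with a library left out. Among the 7 genes, the blocks changed the calls of Plk3, Sipa1l2 and Sipa1l3 only, and DESeq2 that of Plk3 only. Plk3 kept its direction in all 16 alternatives, with edgeR adjusted p between 0.000386 and 0.401 in those on all libraries. The log2 ratio of mean levels of Sipa1l3 was 0.33 in TPM against 0.23 in CPM. With a library left out, Rasgrf1 ranged from -0.08 to 0.06 and Pdlim5 from -0.11 to 0.01, so their signs are not resolved. The other directions held under voom, RLE and upper quartile scaling and without a filter. Plk3 had the fewest counts of the 7 genes, 548 to 830 per library.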
